A study of Mus musculus with 6 samples.

Results

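The enzymes of serine synthesis and of folate-bound one-carbon metabolism, with asparagine synthetase, were examined in heart muscle RNA. The members are 10 genes taken by symbol from the deposited gene tables, out of 17891 genes listed in at least 1 sample: Phgdh, Psat1 and Psph of serine synthesis, Shmt2, Mthfd2, Mthfd1l and Aldh1l2 of the mitochondrial folate pathway, Shmt1 and Mthfd1 of the cytosolic one, and Asns. All 10 were listed in all 6 samples, and all 10 passed the filter on low counts. RNA was sequenced from the myocardium of C57BL/6 mice aged 6 weeks, in 3 wild type (WT) and 3 NS-DADm samples. The latter bear whole-body knock-in mutations of the deacetylase activating domains (DADs) of nuclear receptor corepressors, among them NCOR (encoded by Ncor1), the domains through which these proteins activate the histone deacetylase HDAC3. Because the change is in every tissue, a difference in the heart need not arise in heart cells. The comparison, NS-DADm against WT, asked how the mutant heart muscle differs in gene expression.

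Serine is made from the glycolytic intermediate 3-phosphoglycerate in successive steps by phosphoglycerate dehydrogenase (Phgdh), phosphoserine aminotransferase (Psat1) and phosphoserine phosphatase (Psph). Serine hydroxymethyltransferases split serine into glycine and a one-carbon unit carried on tetrahydrofolate, and parallel sets of enzymes in mitochondria and cytosol pass that unit on to formate, purines, thymidylate or carbon dioxide. The transcription factor ATF4, the effector of the integrated stress response, is known to switch on many of these genes, with Asns among its best-known targets, and mitochondrial dysfunction of heart and skeletal muscle is known to raise the mitochondrial branch.

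Total expected counts, the authors' estimates of reads per gene, were 10183792 to 11205221 in WT and 12262523 to 12758311 in NS-DADm samples and each NS-DADm library was the deeper. Ventricular cardiomyocyte markers were abundant in all 6 libraries, at a summed level of 52470 to 60500 FPKM (the authors' unit, in which fragments are scaled for gene length and depth). Atrial markers set libraries apart in both groups. Their summed level was 4777 FPKM in WT 3, 3847 in NS-DADm 1 and 6680 in NS-DADm 3, against 292 to 597.1 in WT 1, WT 2 and NS-DADm 2. Summed macrophage and monocyte markers did not overlap between the groups, at 292.3 to 325.5 FPKM in WT and 375.2 to 434.6 in NS-DADm. Whether the samples are separate mice is not stated in the labels. The p-values therefore describe only how these samples scatter, which may be technical.

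Of the 10 members, Mthfd2 rose in NS-DADm myocardium and the other 9 did not pass the test. Mthfd2 RNA was 2.92-fold higher than in WT. Aldh1l2, the other member that encodes a mitochondrial enzyme oxidising one-carbon units, was lower in all 3 NS-DADm samples without passing. Shmt2 and Mthfd1, which make up most of the pathway's RNA, were at nearly the same level in both groups. Asns and the 3 enzymes of serine synthesis had higher means in NS-DADm and did not pass. Testing used the quasi-likelihood method of edgeR over 13130 genes, with Benjamini-Hochberg adjustment and a threshold of 0.05. By it 3.2% of all tested genes changed, 1.79% upward and 1.41% downward, against 1 of 10 members, which rose. Mthfd2, Aldh1l2 and Asns had an unadjusted p under 0.05, where 18.1% of all tested genes did.

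**Figure D1:**
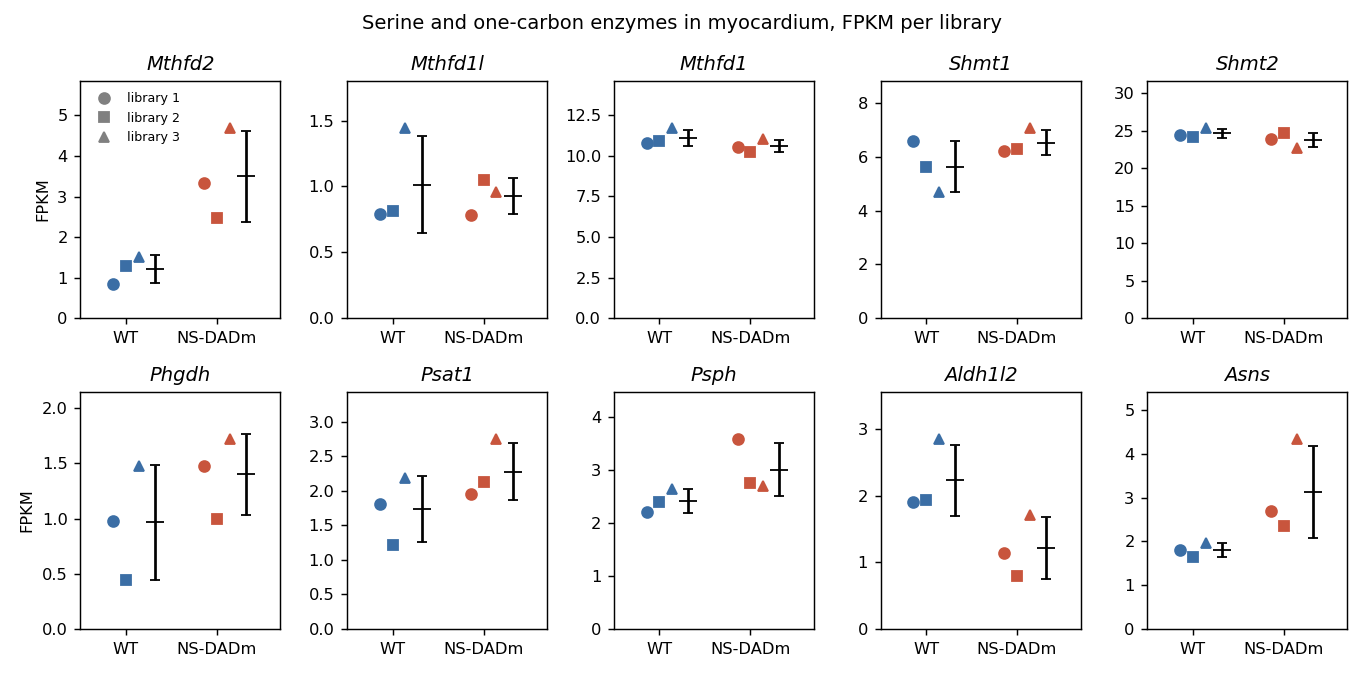
FPKM of each of the 10 members (vertical axes, each from 0 and with its own scale) in the 3 WT (blue) and 3 NS-DADm (red) libraries, with the library number as the symbol's shape and the mean ± SD in black beside each group. The groups stand apart for Mthfd2, Asns, Psph and Aldh1l2, with Aldh1l2 alone lower in NS-DADm, while Shmt2 stays between 22.76 and 25.32 FPKM in all libraries.

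The groups did not overlap for 4 members. Mthfd2, Asns and Psph lay above WT in every NS-DADm sample, where 8.94% of all tested genes did so, and Aldh1l2 lay below, as did 14.5% of all tested genes. The median log2 fold change (NS-DADm over WT) was 0.29 over the 10 members, of which 6 were positive, and -0.003 over all tested genes. The summed FPKM of the 10 members overlapped between the groups, at 50.4 to 55.75 in WT and 53.74 to 59.69 in NS-DADm.

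The levels of the members, in FPKM, spanned more than an order of magnitude. In WT, Shmt2 was highest at 24.65 ± 0.60 (SD, n = 3), followed by Mthfd1 at 11.1 ± 0.49 and Shmt1 at 5.64 ± 0.95, and the samples of these 3 genes did not overlap with each other or with the next. Below them, Psph, Aldh1l2, Asns, Psat1, Mthfd2, Mthfd1l and Phgdh ran from 2.41 down to 0.97 FPKM, and each overlapped with its neighbour in that order. Mthfd2 was in place 8 of 10 in WT. In NS-DADm it was in place 4, at a level that overlapped with those of Asns and Psph, and Aldh1l2 went from place 5 to place 9. Mthfd2 made up 1.61% to 2.71% of the members' summed FPKM in WT samples and 4.60% to 7.84% in NS-DADm samples.

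The promoters of 2 of these genes are shown, Mthfd2 because it is the member that rose, and Asns because its window, alone among those found for the members, holds the core of the element that ATF4 binds. Each run is the 180 bases upstream of the RefSeq start site (GRCm38.p6), 5′ to 3′ along the gene's own strand, with matches to searched motifs in capitals. The Mthfd2 run lies at chr6:83317605-83317784 and the Asns run at chr6:7693210-7693389, both on the minus strand.
Mthfd2: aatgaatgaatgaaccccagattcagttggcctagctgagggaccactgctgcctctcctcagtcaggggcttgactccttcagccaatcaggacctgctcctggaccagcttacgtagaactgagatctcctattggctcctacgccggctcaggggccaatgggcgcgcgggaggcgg
Asns: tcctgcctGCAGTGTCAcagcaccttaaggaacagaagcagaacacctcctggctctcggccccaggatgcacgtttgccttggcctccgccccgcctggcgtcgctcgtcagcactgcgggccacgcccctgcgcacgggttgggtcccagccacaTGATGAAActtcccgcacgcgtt

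The C/EBP-ATF response element core TGATGNAA, the E-box CACGTG, the antioxidant response element core TGACNNNGC and the cAMP response element TGACGTCA were searched on both strands. Windows of 300 bases, from 250 before to 50 after the start, were found for 9 of the 10 members by gene ID, 10 windows in all since Psat1 has 2, and Aldh1l2 had no entry. In Asns, TGATGAAA begins 23 bases before the start. TGATGNAA occurred in 3.97% of all 32817 mouse promoter windows and in the window of 1 member. TGACNNNGC occurred in 12.4% of all windows and in those of 3 members, Asns, Phgdh and Psph. CACGTG and TGACGTCA, found in 7.15% and 1.79% of all windows, occurred in none of the members' windows, and the Mthfd2 window held none of the 4 motifs. These are letter matches in a fixed window, not measured binding.

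Mthfd2 encodes the mitochondrial methylenetetrahydrofolate dehydrogenase and cyclohydrolase, an enzyme that is low in most adult tissues and high in embryos and dividing cells. Its level (gene ID 17768) was 0.84, 1.28 and 1.51 FPKM in WT 1, 2 and 3 and 3.34, 2.47 and 4.68 FPKM in NS-DADm 1, 2 and 3. The lowest NS-DADm sample was above the highest WT sample, and the spread was widest within NS-DADm. These levels rested on 18, 26 and 34 counts in WT and 83, 63 and 115 in NS-DADm. The log2 fold change was 1.55 (SE 0.29, adjusted p = 0.0196 with edgeR), with a 95% interval of the fold change from 1.88 to 4.53. Of all tested genes, 0.487% had a larger change in either direction. In bulk tissue, more cells of a type with much Mthfd2 and more Mthfd2 RNA per cell cannot be told apart.

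The call of Mthfd2 was lost when WT 1, WT 2 or NS-DADm 1 was left out (adjusted p = 0.0771, 0.0851 and 0.0621), with log2 fold changes of 1.34 to 1.59. Within each group the sample with the most atrial marker RNA, WT 3 and NS-DADm 3, also had the most Mthfd2. With the atrial score, the mean log2 level of the atrial markers, as a covariate the log2 fold change of Mthfd2 was 1.29 (adjusted p = 0.0198, edgeR).

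**Figure D2:**
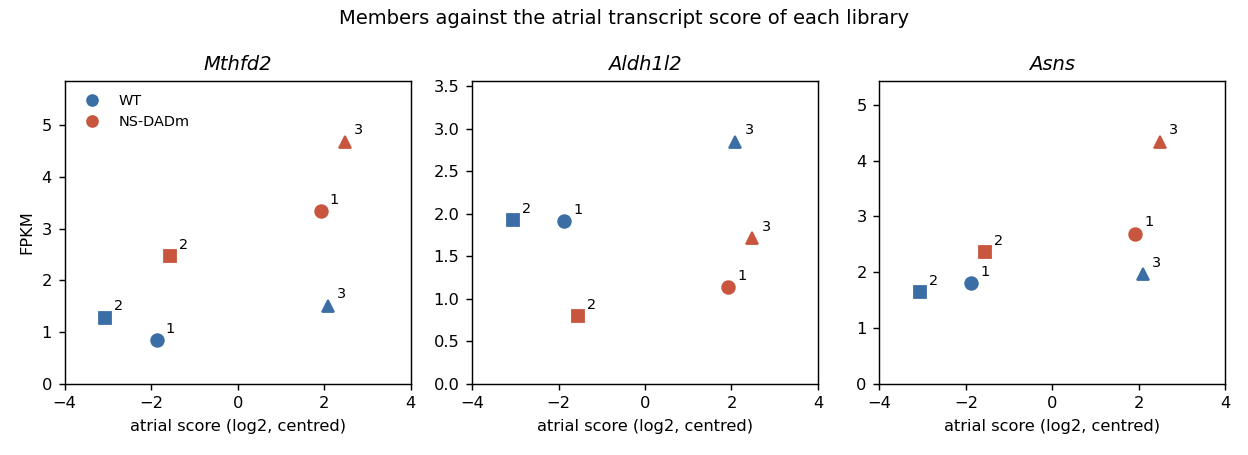
FPKM of Mthfd2, Aldh1l2 and Asns (vertical axes, from 0) against the atrial score of each library (horizontal axis, mean log2 level of 7 atrial marker genes, centred on 0), with WT in blue, NS-DADm in red and the library number beside each point. Within each group all 3 genes are highest in library 3, whose scores are 2.09 in WT and 2.49 in NS-DADm.

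Markers of other cell types were read in the same libraries. All 11 tested macrophage and monocyte markers had a positive fold change and 4 rose (C1qa, C1qb, C1qc and Csf1r), where 1.79% of all tested genes rose. Of the 11 markers, 10 had an unadjusted p under 0.05, where 18.1% of all tested genes did. In every NS-DADm sample 9 lay above WT, where 8.94% of all tested genes did. The mean of the summed FPKM of these markers was 1.33-fold that of WT, and no marker of that list was at 0 in any sample. Their part in the rise of Mthfd2 was not tested. Proliferating cell markers had summed levels that overlapped, 6.57 to 7.92 FPKM in WT against 7.24 to 8.16 in NS-DADm, and 0 of 6 tested passed with edgeR, also at an unadjusted p under 0.05. Summed fibroblast, endothelial and lymphocyte markers overlapped too. Of 7, 7 and 2 tested markers, 0 passed with edgeR, where 3.2% of all tested genes did. At an unadjusted p under 0.05 there were 3, 1 and 0, where 18.1% of all tested genes were. Summed adipocyte markers overlapped as well but had the largest ratio of group means of the 11 marker lists, 3.28, with 8.76, 3.05 and 66.26 FPKM in WT 1, 2 and 3 and 42.54, 6.84 and 206.9 FPKM in NS-DADm 1, 2 and 3. All 4 tested adipocyte markers had a positive fold change (median log2 fold change 1.60), and 0 passed with edgeR, also at an unadjusted p under 0.05. Their sum was highest in library 3 and lowest in library 2 of each group, an order that the atrial score shared. Asns was highest and lowest in the same libraries, as was Mthfd2 within NS-DADm. Within WT, however, Mthfd2 was lowest in WT 1. The part of the adipocyte markers in the differences of Mthfd2 and Asns was not tested. Summed markers of smooth muscle cells and pericytes, of Schwann cells and nerves, and of erythroid cells were lower in every NS-DADm sample, with ratios of the group means of 0.856, 0.685 and 0.687. In the smooth muscle and pericyte list, however, 3 of 7 markers had a positive fold change, the median log2 fold change was -0.02 and 0 passed with edgeR, with 5 at an unadjusted p under 0.05. Of 4 tested Schwann cell and nerve markers 1, Dbh, fell with edgeR, where 1.41% of all tested genes did. Of 5 erythroid markers 0 passed, and 1 lay below WT in every NS-DADm sample, where 14.5% of all tested genes did. The erythroid sums came near each other, at 6708 FPKM in the lowest WT sample and 6680 in the highest NS-DADm sample.

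Mthfd2l, the mitochondrial paralog of Mthfd2, did not pass. Its level was 3.27, 3.33 and 2.56 FPKM in the WT samples and 3.10, 3.12 and 2.27 FPKM in the NS-DADm samples. By edgeR its log2 fold change was -0.08 (SE 0.19, adjusted p = 0.866). All WT samples had less Mthfd2 than Mthfd2l on the FPKM scale, with ratios of 0.257 to 0.590, and the ratios in NS-DADm were 1.08, 0.792 and 2.06. The ratio of Mthfd2 to Shmt2, the enzyme that feeds it, was 0.0343 to 0.0596 in WT and 0.10 to 0.206 in NS-DADm.

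Aldh1l2 encodes mitochondrial 10-formyltetrahydrofolate dehydrogenase, which oxidises the one-carbon unit to carbon dioxide with formation of NADPH. Its level (gene ID 216188) was 1.91, 1.93 and 2.85 FPKM in WT 1, 2 and 3 and 1.14, 0.80 and 1.71 FPKM in NS-DADm 1, 2 and 3. No NS-DADm sample reached the lowest WT sample, though NS-DADm 3 came near it. The log2 fold change was -0.86 (SE 0.25), a 1.82-fold lower level, and missed the threshold (adjusted p = 0.0996, edgeR). The 95% interval ran from -1.42 to -0.30. Aldh1l2 passed without NS-DADm 3 (log2 fold change -1.18, adjusted p = 0.0269), with the atrial score as a covariate (-1.15, adjusted p = 0.00541) and with DESeq2's Wald test (-0.86, adjusted p = 0.0175), fits in which 3.39% (covariate) and 4.33% (DESeq2) of all tested genes were called.

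Within each group Mthfd2 and Aldh1l2 were both highest in library 3, and their ratio varied less between samples of a group than either gene did. The FPKM ratio of Mthfd2 to Aldh1l2 was 0.440, 0.663 and 0.530 in WT and 2.93, 3.09 and 2.74 in NS-DADm. Its mean was 0.544 ± 0.11 in WT and 2.92 ± 0.18 in NS-DADm (SD, n = 3). This ratio was chosen after the values were seen and is given without a test. In the cytosol, the related dehydrogenase Aldh1l1 stood at 1.72, 1.95 and 2.47 FPKM in WT and 2.32, 2.25 and 4.19 in NS-DADm, so its samples overlapped (adjusted p = 0.303 with edgeR, at a log2 fold change of 0.53 with SE 0.25).

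**Figure D3:**
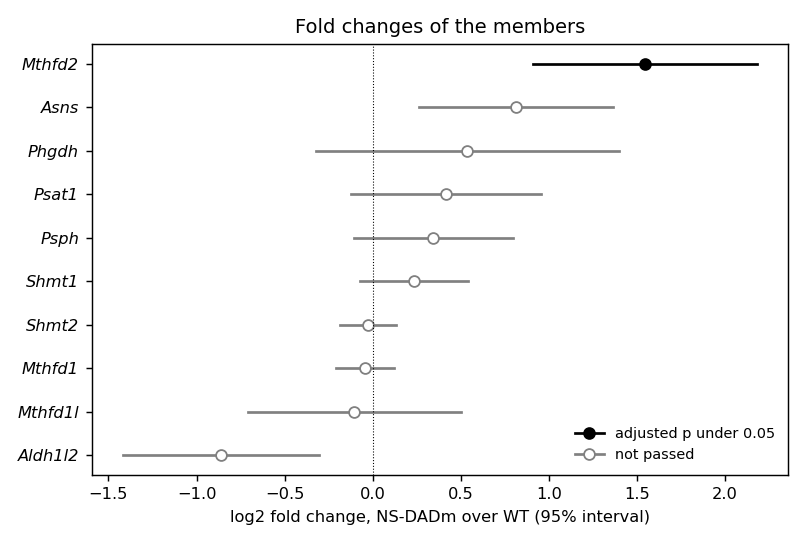
Log2 fold change, NS-DADm over WT (horizontal axis), of the 10 members with 95% intervals, with a filled black point where the adjusted p is under 0.05. Mthfd2 (1.55) and Aldh1l2 (-0.86) stand at the ends, and the intervals of Shmt2 and Mthfd1 are the narrowest.

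The remaining enzymes of the folate branches did not pass, and the precision of each varied with its depth. Shmt2, the mitochondrial serine hydroxymethyltransferase, was at 24.47, 24.16 and 25.32 FPKM in WT and 23.96, 24.65 and 22.76 in NS-DADm (adjusted p = 0.889, edgeR). Its 95% interval of the fold change, 0.88 to 1.10, is the range of differences these samples leave. Mthfd1, the trifunctional cytosolic enzyme, was at 10.76, 10.89 and 11.67 FPKM in WT and 10.53, 10.24 and 11.02 in NS-DADm, with an interval of 0.87 to 1.09 (adjusted p = 0.805).

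Shmt1, the cytosolic counterpart of Shmt2, was at 6.59, 5.64 and 4.70 FPKM in WT and 6.23, 6.29 and 7.06 in NS-DADm, so the groups overlapped (fold change 1.18, interval 0.95 to 1.46, adjusted p = 0.412, edgeR). Mthfd1l, the mitochondrial formyltetrahydrofolate synthetase that releases formate, was at 0.79, 0.81 and 1.44 FPKM in WT and 0.78, 1.05 and 0.96 in NS-DADm. With 30 to 59 counts per sample its interval was wide, from 0.61 to 1.42 (adjusted p = 0.886). WT 3 alone stood apart, above all NS-DADm samples. The ratio of Shmt2 to Shmt1 ranged from 3.71 to 5.39 in WT and from 3.22 to 3.92 in NS-DADm, which overlap.

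The 3 enzymes of serine synthesis were low in all samples and had higher means in NS-DADm, none of which passed. Phgdh, which commits 3-phosphoglycerate to the pathway, was at 0.98, 0.44 and 1.48 FPKM in WT and 1.48, 1.00 and 1.72 in NS-DADm. In both groups library 2 was lowest and library 3 highest, the groups overlapped, and as few as 8 counts in WT 2 lay behind these levels. The fold change of Phgdh was 1.45, with an interval of 0.80 to 2.64 (adjusted p = 0.511, edgeR).

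Psat1 was at 1.81, 1.22 and 2.18 FPKM in WT and 1.96, 2.13 and 2.75 in NS-DADm, which overlapped (fold change 1.34, interval 0.92 to 1.94, adjusted p = 0.407, edgeR). Psph was at 2.20, 2.39 and 2.64 FPKM in WT and 3.58, 2.75 and 2.69 in NS-DADm. Every NS-DADm sample was above WT, but the nearest samples of the 2 groups were 2.64 and 2.69 FPKM (fold change 1.27, interval 0.93 to 1.73, adjusted p = 0.412). The summed FPKM of Phgdh, Psat1 and Psph was 4.05 to 6.30 in WT and 5.88 to 7.16 in NS-DADm, and overlapped.

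Asns, which makes asparagine from aspartate and glutamine, was at 1.80, 1.64 and 1.96 FPKM in WT and 2.69, 2.36 and 4.34 in NS-DADm. The WT samples lay close together, all NS-DADm samples were above them, and NS-DADm 3 was highest. The log2 fold change of Asns was 0.81 (SE 0.25), or 1.76-fold with an interval of 1.20 to 2.58, and missed the threshold (adjusted p = 0.113, edgeR). Without NS-DADm 3 the log2 fold change was 0.52 (adjusted p = 0.277), and with the atrial score as a covariate it was 0.63 (adjusted p = 0.216).

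The transcript tables listed 13 transcripts of the members, and 7 members had a single one. Of the 12 tested, 0 passed with edgeR, where 0.0972% of all 17498 tested transcripts did. At an unadjusted p under 0.05 there were 3, and 1, that of Mthfd2, passed with DESeq2. The share of all transcripts was not computed for these last counts, so they cannot be set against a background. Mthfd2 has 1 transcript, NM_008638, with the same values as the gene, and in the transcript fit its log2 fold change was 1.55 (SE 0.35, adjusted p = 0.213). Shmt2 RNA was mostly NM_028230, with 20.61 ± 0.40 FPKM in WT and 19.43 ± 0.34 FPKM in NS-DADm. The rest was NM_001252316, with 4.04 ± 0.25 and 4.36 ± 0.94 FPKM. Psat1 RNA was mostly NM_177420, while NM_001205339 was not listed in WT 1, WT 2 and NS-DADm 1.

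Among genes whose levels over the 6 samples were most like those of Mthfd2, the nearest were Klhl34, Ccl6 and Ctgf. Likeness was the root mean square difference of centred log2(FPKM + 0.1) over the 6 samples, which was 0.273, 0.276 and 0.279 for these among 11137 genes. Klhl34, a kelch family gene, was at 2.22, 2.88 and 2.51 FPKM in WT and 6.09, 5.08 and 6.52 in NS-DADm. The chemokine Ccl6 was at 12.14, 16.59 and 16.01 FPKM and at 31.08, 29.03 and 35.08. Ctgf, a matricellular protein, was at 36.57, 35.11 and 60.60 FPKM and at 104.56, 79.65 and 108.66. All 3 have their lowest NS-DADm value in library 2 and their highest in library 3, as Mthfd2 does. Since they were picked for this likeness, the shared order is no separate result. The measure also counts the difference between the groups.

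Other genes of the pathway passed about as often as all tested genes did. Of 142 tested genes in 9 lists of neighbouring pathways, members left out, 3 rose and 2 fell, with a median log2 fold change of 0.03, where 3.2% of all tested genes changed. Folate cycle and transport genes had 1 rise of 15 and a median of -0.08. That gene, Folr2, is a folate receptor known as a marker of resident macrophages. It was at 15.01, 10.59 and 10.75 FPKM in WT and 20.38, 19.04 and 19.94 in NS-DADm (adjusted p = 0.0185, edgeR). Leaving out WT 2 or NS-DADm 1 ended that call, with an adjusted p of up to 0.0927. Slc25a32, which carries folate into mitochondria, stood at 2.84, 3.48 and 4.02 FPKM in WT and 2.86, 2.61 and 3.57 in NS-DADm and did not pass.

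Of genes that use one-carbon units, 1 each passed in the methionine and purine lists, where 3.2% of all tested genes changed, 1.41% downward. Methionine cycle and transsulfuration genes had 1 fall of 13, Mat2b, the regulatory subunit of methionine adenosyltransferase, from 57.5 ± 2.4 to 45.9 ± 1.5 FPKM (adjusted p = 0.0408, edgeR). Purine and thymidylate genes had 1 fall of 21, Prps2, which makes the ribose donor of nucleotide synthesis, from 6.43 ± 0.16 to 4.39 ± 0.57 FPKM (adjusted p = 0.0206). Leaving out any single sample ended the call of Mat2b (adjusted p up to 0.143), as did the atrial covariate. Prps2 was not called when either of WT 1 and WT 2 or either of NS-DADm 1 and NS-DADm 2 was left out, or with limma on log2 FPKM (adjusted p up to 0.106). Tyms, the thymidylate synthase, did not pass, at a log2 fold change of -0.08.

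With edgeR, 0 of 8 genes of glycine cleavage and choline degradation, 0 of 21 of serine use and transport and 0 of 12 of glycolysis down to 3-phosphoglycerate passed, as with DESeq2 and limma. Of all tested genes, 3.2% passed with edgeR and 18.1% had an unadjusted p under 0.05. In these lists 1, 3 and 2 genes had an unadjusted p under 0.05. Their most abundant members, Dld, Serinc3 and Gapdh, had log2 fold changes of -0.02, 0.12 and 0.19. Of 18 genes of glutamate, aspartate, alanine and proline metabolism, 0 passed with edgeR, 2 had an unadjusted p under 0.05 and 1, Gpt2, passed with DESeq2. Gpt2, the mitochondrial alanine aminotransferase, averaged 15.6 FPKM in WT against 11.2 FPKM in NS-DADm (log2 fold change -0.45, adjusted p = 0.062 with edgeR and 0.0111 with DESeq2) and was chosen after its values were seen. It also passed with edgeR without the low-count filter (adjusted p = 0.0393), with the replicate number as a block (0.0118) and with the atrial covariate (0.033).

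Genes of the ATF4 arm of the stress response, which controls several members, included more rises. Of 14 tested factors and kinases, 5 rose and 0 fell, where 1.79% of all tested genes rose, with a median log2 fold change of 0.17. Atf4 was at 59.31, 49.40 and 57.70 FPKM in WT and 73.25, 72.09 and 70.66 in NS-DADm (log2 fold change 0.41, adjusted p = 0.0172, edgeR), a smaller change in size than that of Mthfd2. Atf5 (0.69) and Ppp1r15a (0.86), the phosphatase subunit that ends the response, rose, as did Cebpb (0.67) and, named after its values were seen, Atf3 (1.18), while the kinases Eif2ak1 to Eif2ak4 did not pass. Single samples decided calls for all but Atf5. Leaving out WT 2 ended the call of each of the other 4. So did leaving out WT 1 for Cebpb and Atf3, NS-DADm 1 for Atf4 and Atf3, NS-DADm 2 for Atf4, Cebpb and Atf3, and NS-DADm 3 for Cebpb. The highest adjusted p was 0.057 for Ppp1r15a, 0.0775 for Atf4, 0.109 for Cebpb and 0.150 for Atf3. Cebpb and Atf3 were also lost with limma, and without WT 2 this list kept 1 rise.

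Other targets of ATF4 went in both directions, with 13 of 18 tested positive, where 6473 of all 13130 tested genes were. At an unadjusted p under 0.05 there were 5, where 18.1% of all tested genes were. Of 18 tested, 1 rose, Gdf15, a secreted stress cytokine, at 0.74, 1.07 and 0.70 FPKM in WT and 2.46, 1.78 and 2.17 in NS-DADm (adjusted p = 0.0447, edgeR). Leaving out any single sample ended the call (adjusted p up to 0.154), as did DESeq2 and the atrial covariate. The median log2 fold change of these targets was 0.21. Of all tested genes 1.79% rose with edgeR. Slc7a5, an amino acid transporter, was higher in every NS-DADm sample (0.52, adjusted p = 0.139) and the secreted Stc2 lower in every one (-0.69, adjusted p = 0.112), neither passing with all samples. The latter passed without NS-DADm 3 (adjusted p = 0.0243). Slc7a5 and Stc2 were chosen after their values were seen. Among 20 cytosolic aminoacyl-tRNA synthetases, which charge tRNAs with amino acids, Aars alone passed, rising from 18.0 ± 1.0 to 22.8 ± 1.0 FPKM (adjusted p = 0.0206, edgeR). That call ended with limma and when either of WT 1 and WT 2 or either of NS-DADm 1 and NS-DADm 2 was left out (up to 0.114). Of the 20, 15 had a positive fold change. In every NS-DADm sample 5 lay above WT and 0 below, where 8.94% and 14.5% of all tested genes did.

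**Figure D4:**
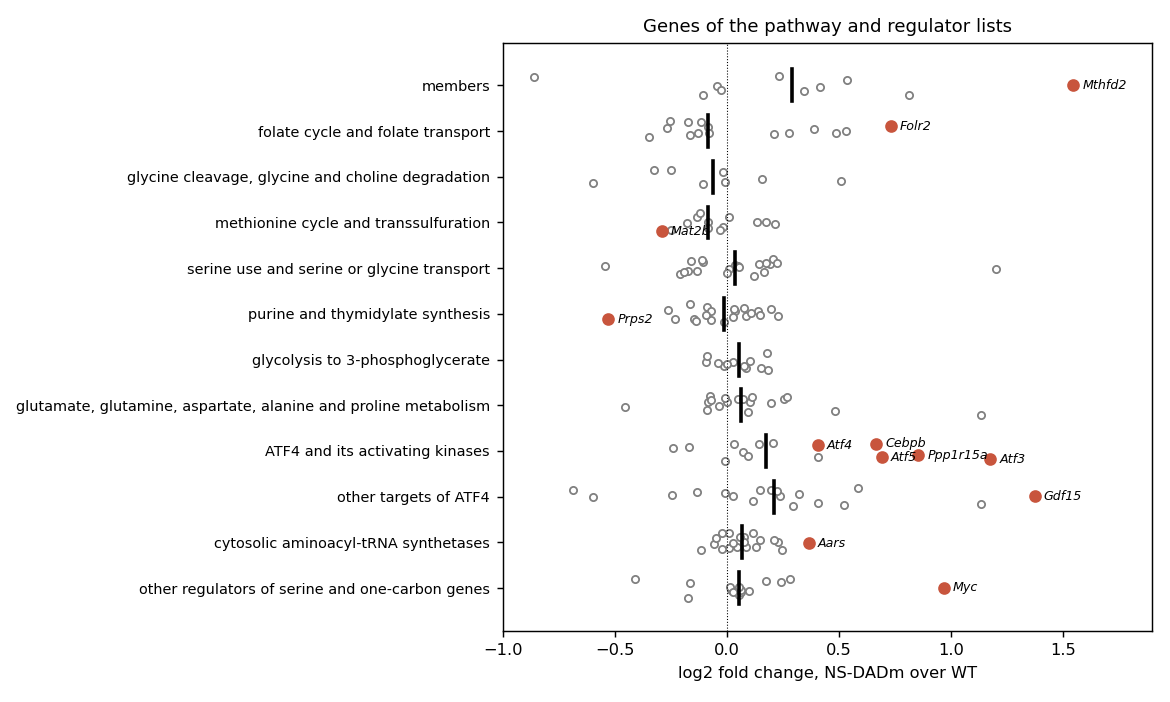
Log2 fold change, NS-DADm over WT (horizontal axis), of each tested gene in the members and in 11 lists (rows), with red named points for an adjusted p under 0.05 and a black bar for the list's median. Medians lie between -0.08 and 0.29, 5 red points are in the list of ATF4 and its activating kinases, more than in any other row, and Mthfd2 lies furthest to the right.

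Of 15 other regulators of these genes, 1 rose, where 1.79% of all tested genes did. Myc, a transcription factor that can raise serine and one-carbon enzymes in growing cells, was at 1.60, 1.44 and 1.53 FPKM in WT and 2.42, 3.26 and 3.11 in NS-DADm. By edgeR its log2 fold change was 0.97 (SE 0.19, adjusted p = 0.0235). The call held without NS-DADm 1 and ended without each of the other samples (adjusted p up to 0.105). Nfe2l2, which encodes the antioxidant regulator NRF2, was higher in every NS-DADm sample, at 42.57 to 47.76 FPKM in WT and 49.11 to 59.27 in NS-DADm. It missed the threshold with all samples (log2 fold change 0.28, adjusted p = 0.112) and passed without NS-DADm 3 (adjusted p = 0.0462).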

How the data were processed

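Per the labels, RNA was extracted with Trizol and libraries were made by standard BGI protocols. The values the authors made from the aligned reads are expected counts, which estimate the reads of each gene or transcript, and FPKM, per the file headers. HISAT, an aligner, is named in the submitters' processing notes. No estimator, genome build or annotation release is given in the sources used here. Only features with an FPKM of at least 0.01 were listed, and a gene not listed was taken as 0. The 1 row without a symbol was left out.

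Expected counts were rounded. Genes passing filterByExpr were scaled by TMM and tested with edgeR 4.0.16 (R 4.3.3), and the 95% intervals use its moderated degrees of freedom. The biological coefficient of variation was 0.106. Alternatives used DESeq2 1.42.0 and limma 3.58.1. In simulated gene counts over 13009 genes, 62.7%, 73.8% and 97% of genes changed 1.5-, 2- and 4-fold were called, and 9.4% of calls were false. For transcripts, over 16622, these shares were 3.2%, 35.4%, 54.1% and 1.7%. The changed features were drawn from all expression levels, so these rates need not hold for members with few counts.

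The members, the lists, the atrial covariate and the tests were chosen with earlier results of these data known. Named are all members and, of each list, up to 4 called genes with the smallest p and the most abundant gene where informative, the 3 genes most like a called member (mean FPKM of at least 1), Mthfd2l and Aldh1l1. Other genes named were chosen after their values were seen.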

Additional observations from a re-analysis of the deposited data

How the results depend on the processing

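Mthfd2 had a positive log2 fold change (1.01 to 1.74) in all 14 alternatives and passed in 11, the exceptions being the fits without WT 1, WT 2 or NS-DADm 1. Aldh1l2 was negative in all 14 and passed in 4, and Asns positive in all 14 and passed in 1. The number of members changed, 1 in the main analysis, was 2 with DESeq2's Wald test and 2 with the atrial covariate, and 0 to 2 when 1 sample was left out. The number of all genes changed, 420, was 272 with limma on log2(FPKM + 1), 267 with a pseudocount of 0.1, and 117 to 382 without 1 sample, lowest without WT 2, then WT 1 (149), NS-DADm 1 (181) and NS-DADm 2 (273). The 5 pathway genes changed became 3 with limma on log2(FPKM + 1), 3 with a pseudocount of 0.1, and 0 to 4 without 1 sample. Member transcripts changed, 0 with edgeR, also without any 1 sample, were 1 with DESeq2. The causes were not tested.

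No pairing of samples by the shared replicate numbers is stated. The correlations of same-numbered samples' deviations from their group means were -0.05, 0.33 and 0.398. WT 2 and WT 3 correlated best with the same-numbered sample, and WT 1 with NS-DADm 2 (0.19). With 3 samples per group these values cannot decide whether the samples are paired. With the replicate number as a block, 895 genes changed, 3 members (Mthfd2, Aldh1l2 and Asns) and 10 pathway genes. Depth limits the low members, with as few as 8 counts in a sample for Phgdh, 18 for Mthfd2, 26 for Psat1 and 30 for Mthfd1l.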
